A study of Mus musculus with 12 samples.

Results

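The genes described are 6 matrix metalloproteinases, Mmp2, Mmp3, Mmp7, Mmp9, Mmp10 and Mmp14, and 3 tissue inhibitors of metalloproteinases, Timp1, Timp2 and Timp3. They were taken by NCBI Gene number from a table of 27179 mouse genes, which held all 9. RNA was sequenced from 12 whole kidneys, 3 in each of 4 groups. Mice that were wild-type or FAN1KO (𝛾GT1-Cre;Fan1-/-, in which the Cre deletes Fan1 in proximal tubule cells) received saline or cisplatin, a platinum drug that crosslinks DNA and injures the proximal tubule. Cisplatin was given intraperitoneally at 2 mg/kg each week over 5 weeks, and controls received saline. All mice were labelled 8 to 12 weeks old and of a mixed strain background. The design asks whether loss of FAN1, a nuclease of DNA crosslink repair, changes the kidney's response to cisplatin.

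Matrix metalloproteinases (MMPs) are zinc-dependent proteases that cut collagens, laminins and other proteins around cells. Most are secreted as inactive proenzymes, while Mmp14 (MT1-MMP) sits in the cell membrane and activates pro-MMP2 together with Timp2. TIMPs are small inhibitors that bind the active site, and Timp3 differs from the others in being held in the extracellular matrix and in also inhibiting several ADAM and ADAMTS proteases. In the kidney, Mmp7 and Timp1 are known as genes that tubule injury and scarring switch on.

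Levels are in TPM, a gene's share of all transcripts of a library after division by gene length and scaling to a fixed total. The number of reads behind each library can be worked out from the spacing of its low TPM values, and ran from 37202169 to 82947648. For a gene of 1 kilobase, 1 read then equals 0.01996 to 0.04785 TPM, so values of Mmp3, Mmp7, Mmp9 and Mmp10 in some libraries rest on few reads. Fan1 RNA was 1.17 to 2.28 TPM in FAN1KO and 1.98 to 3.80 TPM in wild-type saline kidneys, and 1.55 to 3.51 against 2.33 to 3.57 TPM under cisplatin. The genotypes overlapped under both treatments, so whole-kidney Fan1 did not check the labels. Proximal tubule markers summed to 1234 TPM or more in every library, so the labelled tissue's defining genes were present. Every group held 1 library with Y-linked RNA (mean log2(TPM + 1) of 3.46 to 3.93, against at most 0.104 in the other 8): replicate 3 among wild-type mice on saline and FAN1KO mice on cisplatin, and replicate 1 among the remaining 2 groups. These libraries were the lowest of their group for Mmp14 and Timp2 and the highest for Timp3 in 4 of 4 groups. The labels give no sex. Results are therefore also given for the 8 libraries without Y-linked RNA, and with a Y-linked covariate Mmp7, Mmp14, Timp1 and Timp3 were all still called between genotypes under cisplatin (adjusted p 0.000166 to 0.00322 by limma). In that comparison 48.9% of all genes tested were called with the covariate and 36.7% in the 8 libraries, against 23.9% in the main fit.

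The starts of 3 of the proteases lie in 1 cluster on chromosome 9 and follow the same motifs in the same order, which is why their upstream sequence is shown. Promoters of 7 of the 9 genes were found in RefSeq (GRCm38.p6, from 250 bases before to 50 bases after the start). Mmp3, Mmp7 and Mmp10 each held TGAGTCA, the consensus site of the AP-1 factors Fos and Jun. Nearer to the start each also held TATAAA, the letters of a TATA box. It began at base -7 in Mmp3, -26 in Mmp7 and -29 in Mmp10, so its distance from the start was not shared by Mmp3. The 120 bases before each start follow, 5′ to 3′ on the + strand, at chr9:7445702-7445821, chr9:7691970-7692089 and chr9:7502222-7502341, with both motifs in capitals.
Mmp3: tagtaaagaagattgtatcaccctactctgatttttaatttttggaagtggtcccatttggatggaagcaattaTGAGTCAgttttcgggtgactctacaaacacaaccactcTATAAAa
Mmp7: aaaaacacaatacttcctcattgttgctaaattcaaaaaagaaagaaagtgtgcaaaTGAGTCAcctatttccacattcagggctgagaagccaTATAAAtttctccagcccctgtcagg
Mmp10: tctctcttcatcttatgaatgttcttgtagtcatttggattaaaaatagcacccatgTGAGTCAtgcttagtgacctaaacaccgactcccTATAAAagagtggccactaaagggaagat

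Counted from the start, the AP-1 letters began at base -46 in Mmp3 and at base -63 in both Mmp7 and Mmp10. Mmp7 held the letters TATAAA a further time from base -123. Both strands were searched in all 32851 windows of 300 bases. TGAGTCA was present in 5.20% of them and TATAAA in 13.62%. A variant AP-1 site, TGAGTAA, was present in 2.68% and was found in Timp1 from base 27 after the start. None of these motifs was found in the windows of Mmp14, Timp2 and Timp3. A match is a description of sequence and does not show a bound site.

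Mmp14, the membrane protease, was higher in cisplatin-treated FAN1KO kidneys than in every other kidney. Mmp14 (NCBI Gene 17387, chr14:54431598-54442456 in GRCm38.p6, as for the genes below) measured 8.09, 10.1 and 2.97 TPM in wild-type saline, 3.78, 9.32 and 9.15 TPM in FAN1KO saline and 3.52, 18.1 and 14.8 TPM in wild-type cisplatin kidneys. In FAN1KO cisplatin kidneys it measured 62.5, 42.1 and 31.3 TPM. The lowest of these stood above the highest of the other 9 libraries. Of all genes tested, 35.7% were higher without overlap between genotypes under cisplatin (8.6% lower), and 47.4% were higher without overlap between cisplatin and saline in FAN1KO mice (7.43% lower). Each of these shares compares 3 libraries with 3, and no share was counted for 3 against 9. The mean rose from 12.1 ± 7.63 to 45.3 ± 15.8 TPM (SD, n = 3 each) between the genotypes under cisplatin, 3.73 times (log2 fold change 2.01, SE 0.571, limma adjusted p 0.0297). From saline to cisplatin in FAN1KO mice it rose 6.11 times (log2 fold change 2.49, SE 0.571, limma adjusted p 0.00707). The call between genotypes was lost without FAN1KO cisplatin replicate 1 (adjusted p 0.119), replicate 2 (0.0765) or wild-type cisplatin replicate 1 (0.0926, log2 fold change 1.36), and in a fit of only the 6 cisplatin libraries (0.0569). Without the 4 libraries with Y-linked RNA the ratio was 3.18 (limma adjusted p 0.00189).

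**Figure D1:**
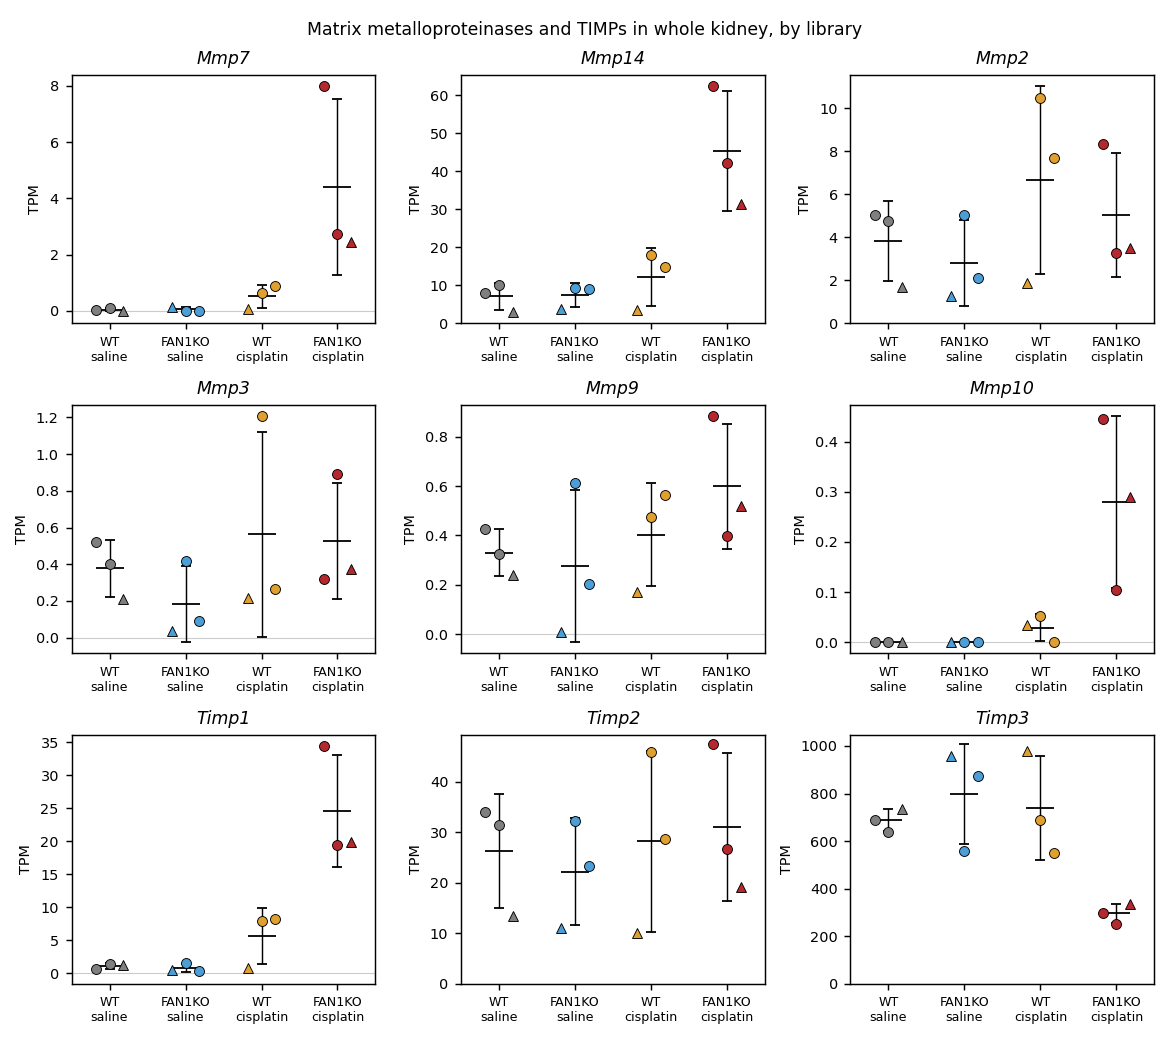
TPM of each of the 9 genes by library, in 4 groups of 3 whole kidneys, with points for single libraries, a bar for the mean and whiskers for 1 SD. Triangles are the libraries with Y-linked RNA; for Mmp7, Mmp10, Mmp14 and Timp1 all FAN1KO cisplatin points lie above the others, for Timp3 all lie below.

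Mmp7 (matrilysin), which cuts E-cadherin and activates other proenzymes, went from near absence to a clear level. Mmp7 (17393, chr9:7692090-7699585) measured 0.0356, 0.0964 and 0 TPM in wild-type saline, 0.156, 0 and 0 TPM in FAN1KO saline and 0.0674, 0.619 and 0.872 TPM in wild-type cisplatin kidneys. FAN1KO cisplatin kidneys had 8.00, 2.74 and 2.47 TPM. No value of the FAN1KO cisplatin group overlapped those of another group. Of all genes above 0, 28.0% were higher without overlap between genotypes under cisplatin and 38.2% between cisplatin and saline in FAN1KO mice. Between genotypes under cisplatin the log2 fold change of TPM + 1 was 1.72 (SE 0.338, limma adjusted p 0.00619), and between cisplatin and saline in FAN1KO mice it was 2.22 (SE 0.338, limma adjusted p 0.000953). Fitted on TPM + 1, these understate a gene this low. In reads, 249 against 30 gave a ratio of 9.47 between the genotypes (95% exact interval 6.47 to 14.3, counting error only), and 249 against 4 a ratio of 71.8 (27.7 to 266.0) between cisplatin and saline in FAN1KO mice. Without the libraries with Y-linked RNA the genotypes differed 7.20 times in TPM (limma adjusted p 0.0118). Mmp7 passed the filter on low values (3 or more libraries with 1 TPM or more) through the FAN1KO cisplatin libraries alone, so its place among the genes tested follows from its rise.

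Mmp10 (stromelysin 2), a protease of laminins and proteoglycans, was detected almost only in the same kidneys. Mmp10 (17384, chr9:7502342-7510242) was listed at 0 in all 6 saline libraries. It measured 0.0345, 0.0529 and 0 TPM in wild-type cisplatin and 0.446, 0.104 and 0.290 TPM in FAN1KO cisplatin kidneys, from 2, 2 and 0 reads and 16, 4 and 11 reads. The cisplatin groups did not overlap, as was so for 28.0% of all genes above 0 in this direction (38.2% between cisplatin and saline in FAN1KO mice). The read ratio between them was 8.84 (95% exact interval 3.13 to 34.5). Against FAN1KO saline kidneys the ratio was 11.9, with 3 reads over that group as the limit that a count of 0 allows. The counting error of the 31 FAN1KO cisplatin reads and the spread between libraries are not in that value. Mmp10 lay under the filter and had an exact permutation p of 0.1, the smallest that 3 against 3 can give. With no filter it was called by limma between genotypes (adjusted p 0.0221), where 16.8% of genes were.

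Mmp3 (stromelysin 1) and Mmp9 (gelatinase B) stayed low, and their groups overlapped. Mmp3 (17392, chr9:7445822-7455975) measured 0.521, 0.399 and 0.211 TPM in wild-type saline, 0.0380, 0.418 and 0.0888 TPM in FAN1KO saline, 0.213, 1.21 and 0.266 TPM in wild-type cisplatin and 0.319, 0.891 and 0.376 TPM in FAN1KO cisplatin kidneys. The value of wild-type cisplatin replicate 2 was the highest of the 12. Mmp3 reads were 71 in wild-type and 63 in FAN1KO cisplatin kidneys, a ratio of 1.01 (95% exact interval 0.710 to 1.44). From saline to cisplatin in FAN1KO mice the Mmp3 reads went from 24 to 63, a ratio of 3.03 (1.86 to 5.07), while the TPM of the 3 libraries overlapped (exact permutation p 0.3). Of the 3 genes whose upstream sequence is printed above, Mmp3 was the one whose cisplatin groups overlapped between genotypes.
Mmp9 (17395, chr2:164940326-164955850) measured 0.428, 0.324 and 0.242 TPM in wild-type saline, 0.0109, 0.613 and 0.204 TPM in FAN1KO saline, 0.170, 0.476 and 0.564 TPM in wild-type cisplatin and 0.883, 0.397 and 0.517 TPM in FAN1KO cisplatin kidneys. The 2 cisplatin groups overlapped (exact permutation p 0.5). Mmp9 reads were 122 in FAN1KO and 88 in wild-type cisplatin kidneys, a ratio of 1.58 (95% exact interval 1.19 to 2.11), and 63 in FAN1KO saline kidneys, to which cisplatin gave a ratio of 2.23 (1.63 to 3.08). These intervals cover counting error only, and the values of single libraries overlapped in both comparisons (exact permutation p 0.3 for the second). Neither gene passed the filter on low values. The neutrophil markers, which mark a cell type that stores Mmp9, summed to 7.34 to 11.2 TPM in FAN1KO and 1.55 to 5.57 TPM in wild-type cisplatin kidneys, with 0 of 2 tested called of 6 listed. Of those listed, Elane was at 0 in both groups and Mpo in wild-type cisplatin kidneys. The rest were not at 0 in all libraries of either group. In saline kidneys the neutrophil markers summed to 6.96 to 9.00 TPM in wild-type and 0.372 to 6.72 TPM in FAN1KO mice. The 2 tested, S100a8 and S100a9, had log2 fold changes of 0.89 and 0.92 between genotypes under cisplatin (limma adjusted p 0.148 and 0.204).

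Mmp2 (gelatinase A), the protease that Mmp14 activates, gave no call in any comparison. Mmp2 (17390, chr8:92827290-92853421) measured 5.04, 4.75 and 1.68 TPM in wild-type saline and 1.25, 5.05 and 2.10 TPM in FAN1KO saline kidneys. Under cisplatin it measured 1.89, 10.5 and 7.69 TPM in wild-type and 8.35, 3.25 and 3.52 TPM in FAN1KO kidneys. These ranges overlapped, and the log2 fold change between them was -0.23 (SE 0.568, limma adjusted p 0.798). Mmp2 between cisplatin and saline in FAN1KO mice had a log2 fold change of 0.70 (SE 0.568, limma adjusted p 0.35). Across the 12 libraries Mmp2 lay closest to Timp2 (Pearson r 0.90 in log2 TPM + 1, as a description) and less close to Mmp14 (0.62). In both Mmp2 and Timp2 the libraries with Y-linked RNA were the lowest of their group, in 3 and 4 of 4 groups. Fibroblast and mural markers, of the cells known for Mmp2, summed to 90.1 to 180.8 TPM in FAN1KO and 66.5 to 255.9 TPM in wild-type cisplatin kidneys, with 0 of 7 called.

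Among the inhibitors, Timp1 and Timp3 moved in opposite directions. Timp1 (21857, chrX:20870166-20874737) measured 0.632, 1.47 and 1.19 TPM in wild-type saline, 0.462, 1.51 and 0.359 TPM in FAN1KO saline and 0.831, 7.89 and 8.28 TPM in wild-type cisplatin kidneys. FAN1KO cisplatin kidneys had 34.4, 19.4 and 19.8 TPM, all above the other 9 libraries. Between genotypes under cisplatin 35.7% of all genes tested were higher without overlap. Timp1 was 4.33 times higher in mean TPM in FAN1KO than in wild-type kidneys under cisplatin (24.5 ± 8.52 against 5.67 ± 4.19, SD, n = 3 each). Its log2 fold change was 2.21 (SE 0.551, limma adjusted p 0.0173), and this call was lost without FAN1KO cisplatin replicate 1 (adjusted p 0.0788) and in a fit of only the 6 cisplatin libraries (0.0621). In the 8 libraries without Y-linked RNA Timp1 was 3.33 times higher (limma adjusted p 0.0162), and between the cisplatin libraries with it, 1 per genotype, 23.9 times higher. From saline to cisplatin in FAN1KO mice Timp1 rose 31.6 times (log2 fold change 3.85, SE 0.551, limma adjusted p 0.000682). In wild-type mice the log2 fold change of Timp1 with cisplatin was 1.36 (SE 0.551, limma adjusted p 1.0). That value rests on wild-type cisplatin replicate 1, a library with Y-linked RNA, since without it the log2 fold change was 2.14 with a limma adjusted p of 0.0314. The TPM ratio of cisplatin to saline in wild-type mice was 7.68 without the libraries with Y-linked RNA and 0.699 between those with it, 1 per group. Timp1 lies within Syn1 on the opposite strand, and Syn1 itself was at 0.117 to 0.487 TPM in all libraries.

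Timp3, the matrix-bound inhibitor, was the only member called lower in FAN1KO cisplatin kidneys, both against wild-type cisplatin and against FAN1KO saline kidneys. Timp3 (21859, chr10:86300412-86349505) measured 690.2, 640.2 and 733 TPM in wild-type saline, 959, 559 and 876 TPM in FAN1KO saline and 981, 687 and 550.2 TPM in wild-type cisplatin kidneys. FAN1KO cisplatin kidneys had 299, 253 and 335 TPM, all below the other 9. Of all genes tested, 8.6% were lower without overlap between genotypes under cisplatin and 7.43% between cisplatin and saline in FAN1KO mice. The Timp3 mean fell from 739 ± 220 to 296 ± 40.9 TPM (SD, n = 3 each) between genotypes under cisplatin, a ratio of 0.4 (log2 fold change -1.29, SE 0.236, limma adjusted p 0.00456). In FAN1KO mice the ratio of cisplatin to saline was 0.371 (log2 fold change -1.40, SE 0.236, limma adjusted p 0.00155). Without the libraries with Y-linked RNA the ratio between genotypes was 0.446 (limma adjusted p 0.00752). The cisplatin effect of Timp3 differed between the genotypes, with an interaction of -1.47 (SE 0.334, limma adjusted p 0.0331). That call was lost under median-ratio scaling (adjusted p 0.0772) and without any 1 of 8 libraries (at most 0.0848), replicates 1 and 3 of FAN1KO saline and replicates 1 and 2 of each of the other groups. Of the 14972 genes tested, 6.24% were called in the interaction and 1.02% in this direction.
In bulk kidney, fewer cells of a type and less RNA per cell cannot be told apart. The proximal tubule markers summed to 1234 to 2282 TPM in FAN1KO and 3069 to 4197 TPM in wild-type cisplatin kidneys, with 4 of 6 lower, and their part in the fall of Timp3 was not tested. Timp3 lies within Syn3 on the opposite strand with overlapping exons. Syn3 moved with it, from 3.41 to 7.18 TPM in wild-type to 1.20 to 1.93 TPM in FAN1KO cisplatin kidneys. Because the strandedness of the counting is not given, reads of the overlap cannot be assigned to either. Syn3 held 4820 reads in wild-type and 1148 in FAN1KO cisplatin kidneys, against 280056 and 90598 reads of Timp3.

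Timp2, the partner of Mmp14 at the membrane, showed no change that passed the test. Timp2 (21858, chr11:118301061-118355411) measured 34.1, 31.5 and 13.4 TPM in wild-type saline, 11.0, 32.2 and 23.3 TPM in FAN1KO saline, 10.1, 46.0 and 28.7 TPM in wild-type cisplatin and 47.5, 26.8 and 19.1 TPM in FAN1KO cisplatin kidneys. The gene Cep295nl lies within its span. The Timp2 groups overlapped in every comparison of genotype or treatment. The log2 fold change between genotypes under cisplatin was 0.27 (SE 0.577, limma adjusted p 0.764).

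Of the 6 genes tested, 4 were called between genotypes under cisplatin, against 23.9% of all genes tested (19.6% higher and 4.37% lower). Leaving out Mmp7, which had to be high in FAN1KO cisplatin kidneys to be tested, Mmp14, Timp1 and Timp3 were called among the other 5. The same 4 were called between cisplatin and saline in FAN1KO mice, where 39.8% of all genes were (34.9% higher and 4.9% lower). The 2 comparisons share the FAN1KO cisplatin libraries. For these 4 genes and Mmp10 the exact permutation p was 0.1 in both. Tubule injury markers, Lcn2 among them, summed to 778 to 1155 TPM in FAN1KO and 32.8 to 147.9 TPM in wild-type cisplatin kidneys, with 4 of 4 higher, and their part in these calls was not tested. No member was called between genotypes under saline (0.768% of all genes) or between cisplatin and saline in wild-type mice (0.0601%) by limma. At an unadjusted p under 0.05 there were 0 and 1 (Timp1), and voom on the recovered reads called 0 in both. In the interaction, Timp3 was called and Mmp7 (1.72, adjusted p 0.0593), Timp1 (2.49, adjusted p 0.0805) and Mmp14 (1.90, adjusted p 0.174) were not, by limma. TPM sum to a fixed total, and the median gene shifted by 0.245 between genotypes under cisplatin and by 0.369 between cisplatin and saline in FAN1KO mice on the log2 scale. After scaling each library to its median ratio, Timp3 was -1.59, Timp1 1.95, Mmp14 1.72 and Mmp7 1.51 between genotypes under cisplatin, with the same directions and calls. Labels number the samples 1 to 3 within a group, and the p-values measure the spread between these samples.

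**Figure D2:**
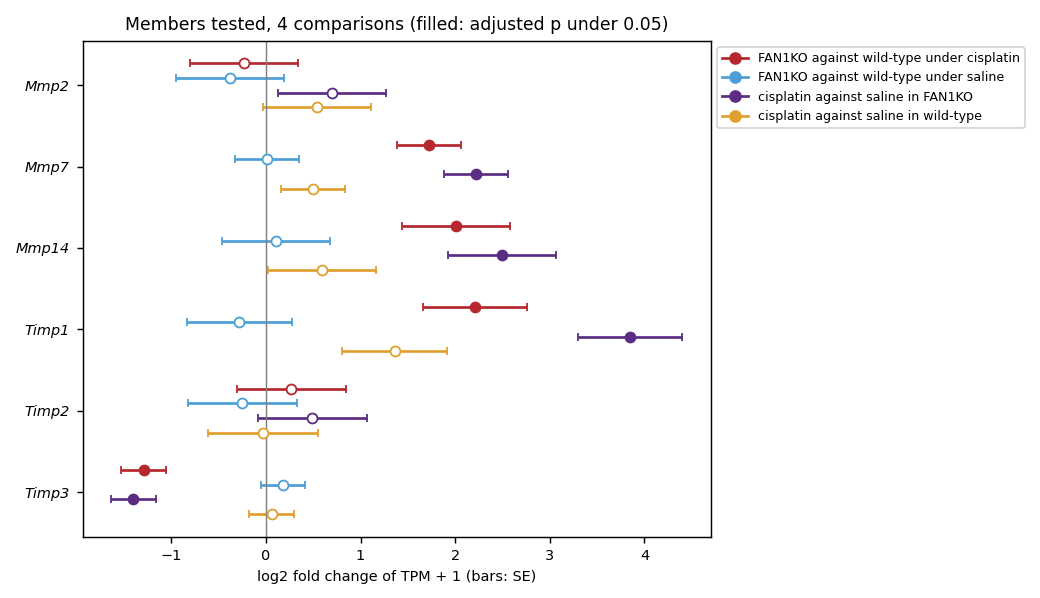
Log2 fold change of TPM + 1 for the 6 genes that passed the filter on low values, in 4 comparisons of 3 against 3 libraries, with bars of 1 SE. Filled points have an adjusted p under 0.05 by limma; Mmp7, Mmp14, Timp1 and Timp3 are filled in FAN1KO against wild-type under cisplatin and in cisplatin against saline in FAN1KO.

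The balance of the family moved with these genes. Summed over 4 TIMP and 23 MMP genes, the ratio of TIMP to MMP RNA in TPM was 20.3 to 54.7 in wild-type saline, 14.9 to 64.0 in FAN1KO saline and 11.8 to 67.9 in wild-type cisplatin kidneys. In FAN1KO cisplatin kidneys it was 3.02 to 6.37, below every other library. In every group the library with Y-linked RNA had the highest ratio. Without these libraries the ratio was 21.3 and 20.3 in wild-type saline and 14.9 and 26.9 in FAN1KO saline kidneys. Under cisplatin it was then 12.3 and 11.8 in wild-type and 3.02 and 3.84 in FAN1KO kidneys. Timp3 made up 92.7% to 98.8% of TIMP RNA in the other 9 libraries and 78.5% to 89.4% in FAN1KO cisplatin kidneys. The Timp3 to Timp1 ratio was 8.70 to 16.9 there, against 66.4 to 1180.5 in wild-type cisplatin kidneys. Without the libraries with Y-linked RNA these were 8.70 and 13.0 against 87.1 and 66.4. Mmp14 made up 21.7% to 30.3% of MMP RNA in the other 9 libraries and 49.5% to 53.9% in FAN1KO cisplatin kidneys. These shares describe the values given above and were not tested.

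**Figure D3:**
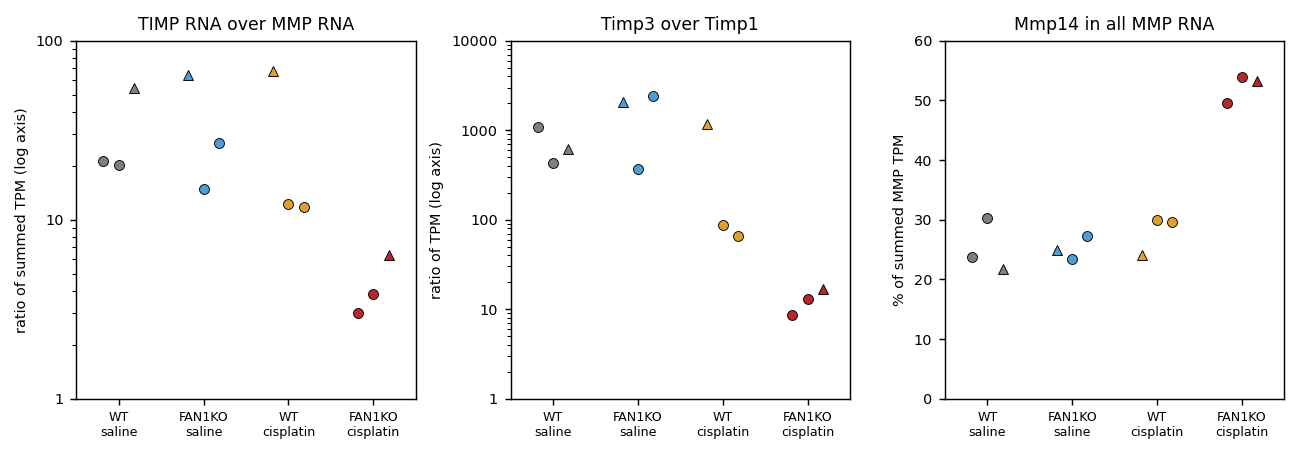
Ratio of summed TIMP to summed MMP TPM (log axis), ratio of Timp3 to Timp1 TPM (log axis) and Mmp14 as % of summed MMP TPM, with 1 point per library in 4 groups of 3; triangles are the libraries with Y-linked RNA. FAN1KO cisplatin kidneys sit at 3.02 to 6.37, 8.70 to 16.9 and 49.5% to 53.9%.

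On chromosome 9, Mmp7, Mmp10 and Mmp3 lie in a run of 10 MMP genes within 427072 bases. Mmp27 was at 0 to 0.0189 TPM in wild-type saline, 0 in FAN1KO saline, 0.0357 to 0.0867 TPM in wild-type cisplatin and 0.327 to 0.538 TPM in FAN1KO cisplatin kidneys. Its cisplatin groups, from 8 wild-type and 48 FAN1KO reads, did not overlap either, as was so for 28.0% of all genes above 0 in this direction. Mmp27 was singled out after its values were seen. Mmp12, the macrophage elastase, at 0.543 to 3.27 TPM in FAN1KO and 0.418 to 2.35 TPM in wild-type cisplatin kidneys, overlapped between genotypes, as did the collagenase Mmp13. Mmp1a and Mmp1b were listed at 0 in all 12 libraries. Macrophage markers, with 1 of 6 higher, summed to 112 to 309 TPM in FAN1KO against 43.3 to 115 TPM in wild-type cisplatin kidneys, and their part in the MMP values was not tested.

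**Figure D4:**
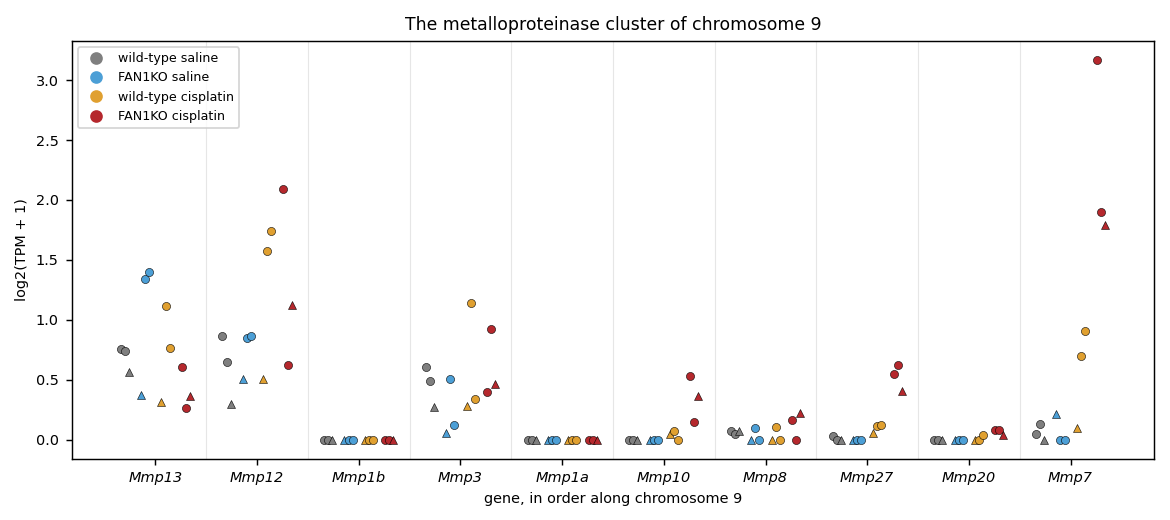
Log2(TPM + 1) of the 10 metalloproteinase genes of chromosome 9, in their order along it, with 1 point per library coloured by group and triangles for libraries with Y-linked RNA. Mmp10, Mmp27 and Mmp7 are higher in all 3 FAN1KO cisplatin libraries than in the other 9, while Mmp12, Mmp3 and Mmp13 overlap between groups.

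The other metalloproteinases and their pathway were read from lists chosen with earlier results of these data known. Each adjusted p is from limma over all genes tested, and each median stands beside 0.24 for all genes. Of the other 17 MMPs, 7 were tested between genotypes under cisplatin and 0 were called, with a median log2 fold change of 0.11 (Mmp15, a membrane protease like Mmp14, had 0.59 with an adjusted p of 0.266). The rest of the 17 lay under the filter on low values and could not be called, so these counts do not cover them. Of the other inhibitors, 0 of 3 tested were called (median -0.25, with Reck at -0.25 and an adjusted p of 0.633). At an unadjusted p under 0.05, and by voom on the recovered reads, 0 were called in either list. Of the genes of plasminogen activation, which feeds proenzyme activation, 2 of 6 were higher (median 1.02). Among them was Plaur, the urokinase receptor, at 2.83 (SE 0.546, adjusted p 0.00572). Plau, urokinase itself, at 0.95, had an adjusted p of 0.0598.
Of MMP partners and convertases 4 of 8 were higher (median 1.05). These were Lcn2, which binds Mmp9, at 4.41, Spp1 (osteopontin) at 2.84, Cd44 at 1.71 and Cldn1 at 1.56. Of ADAM and ADAMTS proteases, several of which Timp3 can inhibit, 2 of 12 were higher (median 0.20), Adam8 at 1.85 and Adamts1 at 1.42. Adam8 reached 1 TPM in only 2 libraries outside the FAN1KO cisplatin group and so passed the filter through the group where it was high. Of MMP substrates 2 of 13 were higher (median 0.72), among them the laminin chain Lama5 at 1.03. No gene of these lists was called lower between genotypes under cisplatin by limma. With 19.6% of all genes tested higher in this comparison, the counts of the ADAM and ADAMTS list and of the substrate list lie below that share. Between cisplatin and saline in FAN1KO mice, 4 of 6 plasminogen genes, 4 of 8 partners, 3 of 12 ADAM and ADAMTS proteases and 4 of 13 substrates were higher, 1 ADAM or ADAMTS protease was lower, and 0 of 7 other MMPs and 0 of 3 other inhibitors were called. Of all genes tested 34.9% were higher in that comparison, more than the share of the ADAM and ADAMTS proteases or of the substrates. Between genotypes under saline, the protease inhibitor A2m alone of these lists was called, at -1.15 (SE 0.174, limma adjusted p 0.014). A2m reached 1 TPM in the wild-type saline libraries alone, so it too passed the filter through the group where it was high. Under cisplatin, the erythroid markers summed to 6.56 to 73.4 TPM in FAN1KO against 2318 to 6571 TPM in wild-type kidneys, with 4 of 4 tested lower. In the same comparison, of the markers of endothelium, podocytes and fat 0 of 5, 0 of 4 and 0 of 4 were called, and of those of distal tubule and collecting duct 1 of 5 was higher. Neither their part in the results above nor that of the other markers was tested.

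For the 4 genes called, the 3 genes closest by Pearson r over the 12 libraries (log2 TPM + 1, including groups that differ) were read as a description. For Timp1 they were Il1f6, an interleukin of the IL-36 family (0.984), Relb, a subunit of NF-kappaB (0.984), and Ddx39a (0.983). For Mmp7 they were Olfr1318 (0.987), Krt12, a keratin (0.987), and Arhgap36 (0.985). For Mmp14 they were Slu7 (0.993), Gramd1a (0.993) and Chd8 (0.992). For Timp3 they were Aldh9a1, an aldehyde dehydrogenase (0.973), Abhd3 (0.968) and Pdzd2 (0.967).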

How the data were processed

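The values deposited were TPM, in 1 table of 27179 genes by NCBI Gene number, and each library summed to 1000000. The aligner, the annotation and the strandedness are not given in the sources used here. The submitters' processing notes name mm10 and limma, with no role. RefSeq (GRCm38.p6) named all but 1904 identifiers. Columns not used numbered 0.

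Reads per library were recovered from TPM steps: all 22557 genes above 0 came out whole in every library, against 1 of 500 whose values had been moved. They are the smallest whole numbers that the TPM allow. They may count mates of a pair separately, and intervals from them (exact, 95%) cover counting error only.

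The 14972 genes at 1 TPM or more in 3 or more libraries were tested by limma 3.58.1 in R 4.3.3 on log2(TPM + 1), with 4 group means fitted to all 12 libraries, a mean-variance trend and Benjamini-Hochberg adjustment over all of them (threshold 0.05). This scale understates the fold changes of low genes. The exact two-sided permutation test compared single genes (smallest p 0.1). The steps were tested on simulated data with the same set spread for all genes and no libraries that differ by Y-linked RNA. That test cannot show how the steps perform at the spread of these libraries. Alternatives were a pseudocount of 0.1, no filter, only the 6 libraries of a comparison, median-ratio scaling, no trend, a replicate block, a Y-linked covariate, voom on the recovered reads and each library left out. The 8 libraries without Y-linked RNA and scaling with no filter were chosen after seeing the data. Members and lists were chosen with earlier results of these data known. The text names all 9 members, the 3 genes closest to each called member, and at most 4 called genes of a list by size of change. Some genes that this rule names are not reported here.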

Additional observations from a re-analysis of the deposited data

Results flagged for a closer look

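The cisplatin effect of Timp3 differed between the genotypes, at -1.47 (FAN1KO minus wild-type effect in log2, SE 0.334, limma adjusted p 0.0331). Timp3 fell in FAN1KO kidneys with cisplatin, while in wild-type kidneys the saline and cisplatin values overlapped. The adjusted p of this difference ran from 0.0248 to 0.0848 when single libraries were left out.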

How the results depend on the processing

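Between genotypes under cisplatin, 4 members were called. Only the 6 libraries of the comparison left 2, since Mmp14 (adjusted p 0.0569) and Timp1 (0.0621) missed the threshold, and leaving out single libraries left 2 to 4. From saline to cisplatin in wild-type mice 0 were called, with 0 to 1 when single libraries were left out. In the interaction 1 was called. Median-ratio scaling left 0, with or without the filter, with an adjusted p of 0.0772 for Timp3 with it. The Y-linked covariate gave 4, the 8 libraries without Y-linked RNA 2, and leaving out single libraries 0 to 2. The cause was not tested. Fold changes of the tested members were followed through the alternatives between genotypes under cisplatin, between cisplatin and saline in FAN1KO mice and in the interaction, and of Timp1 alone in wild-type mice. Among these, directions turned for Mmp2 and Timp2, which were not called. Between genotypes under cisplatin Timp2 was -0.03 with median-ratio scaling, with that scaling and no filter, and in the 8 libraries, and ran from -0.32 to 0.72 without single libraries, while Mmp2 ran from -0.82 to 0.17. In the interaction Mmp2 was -0.11 with median-ratio scaling, with or without the filter, and -0.22 in the 8 libraries, and ran from -0.45 to 0.55 without single libraries, while Timp2 ran from -0.06 to 0.98. Over the other alternatives the share of all genes called ran from 11.4% to 48.9% between genotypes under cisplatin and from 2.28% to 31.6% in the interaction. Single libraries also moved these shares. Between genotypes under cisplatin, 23.9% became 10.3% without FAN1KO cisplatin replicate 1, 12.9% without its replicate 2 and 12.7% without wild-type cisplatin replicate 1. From saline to cisplatin in FAN1KO mice, 39.8% became 24.2% without FAN1KO cisplatin replicate 1. In the interaction, 6.24% became 1.8% to 3.56% without replicate 1 or 3 of FAN1KO saline or replicate 1 or 2 of any other group. Without single libraries the share ran from 0.287% to 0.862% between genotypes under saline and from 0% to 0.274% for cisplatin in wild-type mice.

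Mean ratios in TPM without the libraries with Y-linked RNA crossed 1 for Timp3 with cisplatin in wild-type mice (1.07 to 0.93) and for Mmp9 between genotypes under saline (0.834 to 1.09), as for Timp2 between genotypes under cisplatin (1.1 to 0.993), with overlapping groups in all 3.

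The replicate block changed no call of a member (Mmp14 adjusted p 0.038, Timp1 0.0247, Mmp7 0.0152 and Timp3 0.00625 between genotypes under cisplatin, where 4 members were called with the block, and 1 in the interaction). Same-numbered libraries correlated at -0.243 on average in that comparison and 0 of 6 correlated best with their own number. The libraries with Y-linked RNA bore unlike numbers in the cisplatin groups, which can lower such correlations. This check therefore cannot tell whether the numbers pair samples. Depth limits Mmp3, Mmp9 and Mmp10, which lie below the filter, and the saline values of Mmp7.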
